A study of Mus musculus with 12 samples.

Results

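The lysosomal cathepsins described here were 10 genes, Ctsa, Ctsb, Ctsc, Ctsd, Ctsf, Ctsh, Ctsk, Ctsl, Ctss and Ctsz, out of 34509 gene symbols on the array. Every probe whose symbol was one of these names was taken, which gave 16 probes. RNA came from femoral head cartilage of 21-day-old TS-4/5∆cat mice, in which Adamts4 and Adamts5 both lack the exon that codes for the catalytic domain, and the untreated group carries these deletions like the treated ones. The explants were kept for 3 days untreated, with IL-1α at 10 ng/ml (given as recombinant human protein in the methods) or with retinoic acid at 10 µM. Each treatment had 4 arrays, 2 from mice of a line named Donut, which form batch 1, and 2 from a line named Gertrude, which form batch 2, so line and batch cannot be told apart. The labels speak of 4 hips in a well and of triplicate treatment, whereas the methods speak of 3 unpooled mice per treatment, so the p-values below measure the spread between arrays and the animals behind each array are not known.

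Cathepsins are proteinases of the lysosome. Most are papain-like cysteine proteinases, while cathepsin D is an aspartic proteinase and cathepsin A a serine carboxypeptidase. They are made as inactive proenzymes, tagged with mannose 6-phosphate, carried to the lysosome by receptors and activated in its acid interior, and stefins and cystatins inhibit the cysteine members. In cartilage and bone, cathepsin K is known for the cleavage of collagen, and cathepsins B and L are known to degrade aggrecan and other matrix proteins when they are released from the cell.

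A probe was kept when it was detected above background on at least 4 of the 12 arrays, and values are log2 normalized intensities, which are not compared between probes. Of the 16 probes, 13 were kept, 11 of them detected on all 12 arrays, and these represent 9 of the 10 genes. The single Ctsl probe (ILMN_2652709) was detected on 0 arrays, with raw intensities of 36.1 to 73.5, so Ctsl, the gene of cathepsin L, has no measured level in any treatment. The other probes that were not kept are further probes of Ctsa (ILMN_2681631) and Ctsb (ILMN_2593604), each detected on 1 array. Ctsa, Ctsb, Ctsc and Ctsz each had 2 kept probes, and the brighter one represents the gene in the counts.

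The arrays detected 13786 to 14965 probes in batch 1 and 16732 to 19485 in batch 2. Across kept probes the correlation between arrays was 0.983 to 0.995 where treatment and batch were both shared, and 0.868 to 0.902 where the treatment was shared but not the batch. The limma model that compared treatments held a factor for batch and replicate, and adjusted p-values are over all 18200 kept probes. Since each group of 4 arrays holds both batches, the groups of a gene can overlap when its difference within each batch is clear. The retinoic acid and IL-1α comparisons against untreated share the untreated arrays.

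Some of the 9 kept cathepsin genes passed the test with each treatment, and whether they did so more often than other genes was not tested. With retinoic acid against untreated, 3 of the 9 genes rose (Ctsc, Ctsk and Ctsb), 1 fell (Ctsf) and 5 did not pass the test, where 18.6% of all 14317 genes rose and 18.1% fell. With IL-1α against untreated, 1 rose (Ctsk), 1 fell (Ctsf) and 7 did not pass, where 15.1% of all genes rose and 15% fell. Between the treatments, Ctsc and Ctsb were higher with retinoic acid, none was lower and 7 did not pass, against a background of 16.1% higher and 16.4% lower. At an unadjusted limma p under 0.05, 1 more gene, Ctsh, lay lower under retinoic acid than under IL-1α. With IL-1α against untreated, Ctsz (by its brighter probe) was then higher and Ctss lower as well. Retinoic acid against untreated gained no member at that limit. The median log2 difference over the 9 genes was 0.18 for retinoic acid and 0.03 for IL-1α against untreated and 0.03 for retinoic acid against IL-1α, where the medians of all genes were 0.01, 0.01 and -0.03.

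An exact two-sided permutation test of 4 arrays against 4, which takes no account of batch and cannot give a p below 0.0286, was run for each of the 9 genes in each comparison. It reached that p in 3 of 27 tests, for Ctsc and Ctsh between the treatments and for Ctsf with IL-1α against untreated. For the other calls of the limma model it did not pass. Its exact permutation p was 0.0857 for both Ctsc and Ctsf with retinoic acid against untreated, 0.486 for Ctsb between the treatments and 0.514 against untreated, and for Ctsk 0.343 with retinoic acid and 0.286 with IL-1α.

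When a fold change over 1.5 was required as well, Ctsc remained of the 2 genes that exceeded IL-1α under retinoic acid (10.7% of all genes). Ctsc also passed for a rise with retinoic acid against untreated (10.9% of all genes). Ctsf passed for a fall with retinoic acid (11.9%) and for a fall with IL-1α (9.44%).

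**Figure D1:**
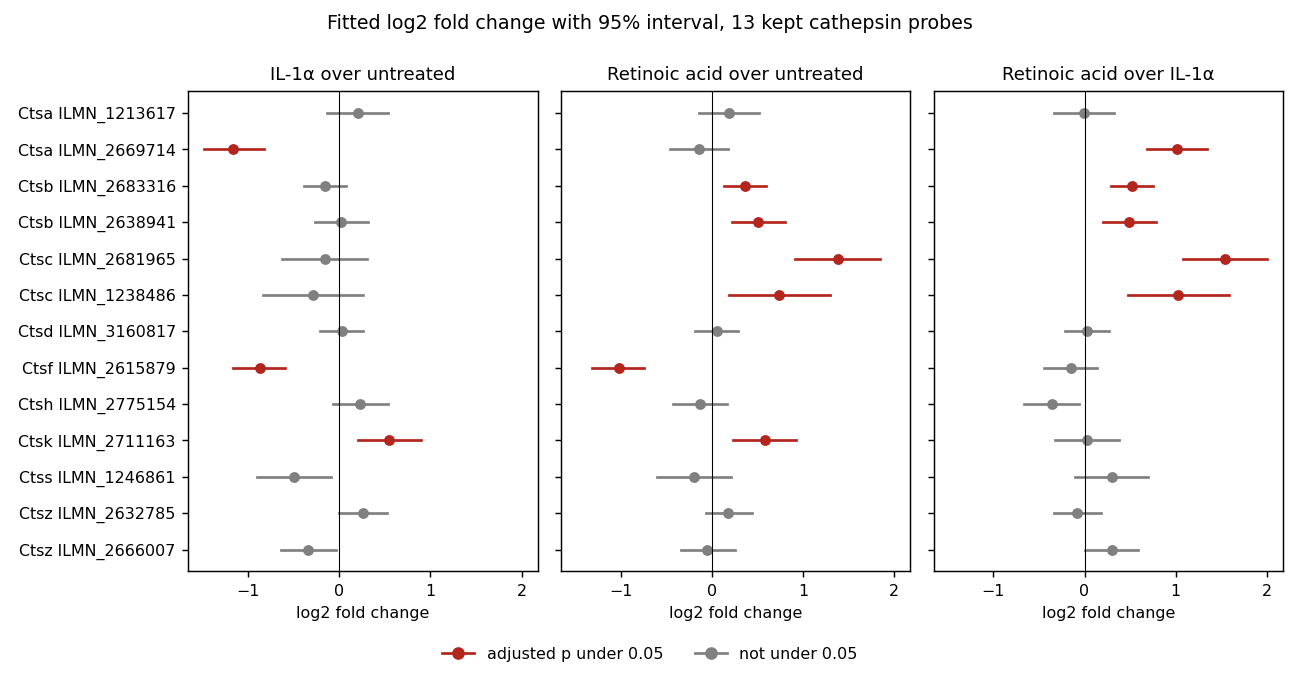
Fitted log2 fold change (horizontal axis) with its 95% interval for each of the 13 kept cathepsin probes in the 3 comparisons, over 4 arrays per treatment, with probes at an adjusted p under 0.05 in red. Both Ctsb probes and the brighter Ctsc probe lie to the right of 0 for retinoic acid. The dimmer Ctsc probe also does, but it was kept mainly through retinoic acid arrays. Ctsf lies near -1 against untreated for both treatments, and the 2 Ctsa probes part with IL-1α.

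Ctsc (chr7:88278024-88315861 in GRCm38.p6) codes for cathepsin C, also known as dipeptidyl peptidase I, which removes dipeptides and activates the serine proteinases of immune cell granules. Its brighter probe (ILMN_2681965) gave 7.61 and 7.79 (batch 1) and 8.96 and 8.64 (batch 2) on the untreated arrays. The IL-1α arrays gave 7.95 and 8.04 (batch 1) and 8.21 and 8.15 (batch 2), and the retinoic acid arrays gave 8.91 and 8.87 (batch 1) and 10.38 and 10.36 (batch 2). The retinoic acid arrays were thus above both other groups of their own batch, and above all IL-1α arrays, and overlapped the untreated group only where batch 1 arrays with retinoic acid met an untreated array of batch 2.

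The rise of Ctsc with retinoic acid against untreated was 1.38 (SE 0.21) on the log2 scale, a 2.6-fold change, with a limma adjusted p of 0.000249. It was 1.19 in batch 1 and 1.57 in batch 2. The dimmer Ctsc probe (ILMN_1238486) gave a rise of 0.74 (adjusted p = 0.037), but it was detected on only 3 retinoic acid arrays, 1 untreated array and 0 IL-1α arrays. It was thus kept mainly through the group where it is high, and its rise is not separate support. With retinoic acid in batch 1 this probe read 4.74, where it was not detected, and 5.46. No least fold over IL-1α is thus given for it.

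Ctsc was the only one of the 9 members for which a treatment by batch term passed the test. The difference between retinoic acid and IL-1α was larger in batch 2 than in batch 1 by 1.29 (SE 0.21) on the log2 scale, with a limma adjusted p of 0.00157. This made 1 of 9 members, where the term passed for 8.91% of all genes. For IL-1α against untreated, Ctsc was 0.29 higher in batch 1 and lower in batch 2, at -0.61, and the difference between batches was -0.91 (SE 0.21, adjusted p = 0.0234). This again made 1 of 9, where 4.57% of all genes passed. At an unadjusted p under 0.05 the limma term held for 3 members between the treatments (Ctsc, Ctsf and Ctsk) and for 4 with IL-1α against untreated (Ctsa, Ctsc, Ctsk and Ctss). For retinoic acid against untreated, limma called 0 of 9 members, with 2.7% of all genes called and 2 members, Ctsa and Ctss, at an unadjusted p under 0.05. In batch 2 the order of Ctsc levels was IL-1α, untreated, retinoic acid, and in batch 1 it was untreated, IL-1α, retinoic acid, with no overlap between neighbours in either order. Without any one of 5 arrays (untreated replicate 1 of either batch, both IL-1α arrays of batch 1 and IL-1α replicate 2 of batch 2), the term for IL-1α against untreated no longer passed and the count was 0. The term for retinoic acid against IL-1α passed without each array in turn.

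**Figure D2:**
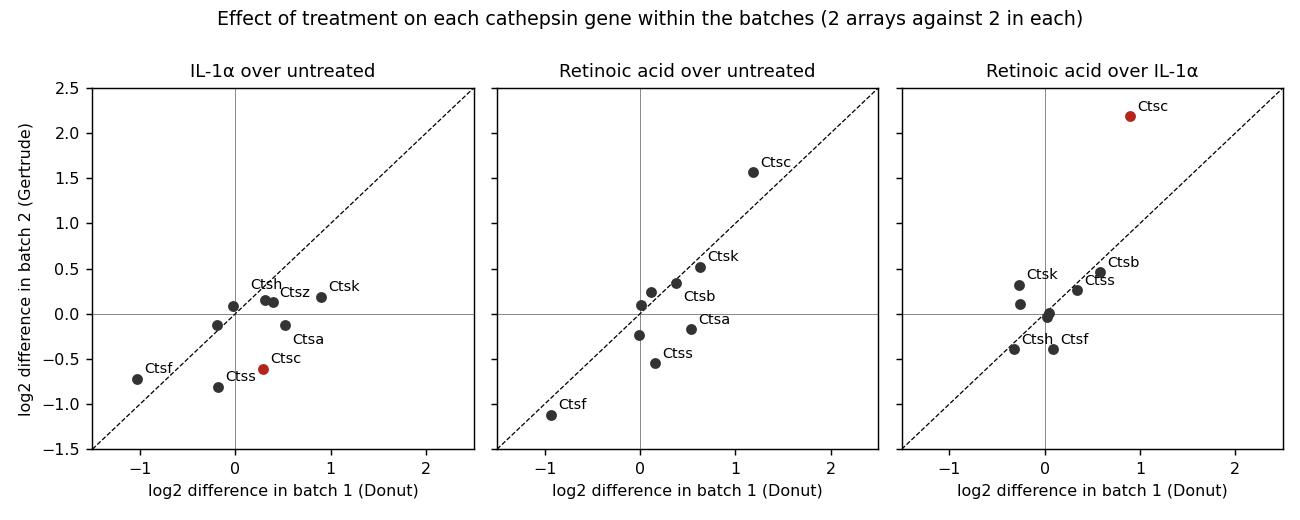
Log2 difference of each kept cathepsin gene in batch 1 (horizontal axis) and batch 2 (vertical axis) for the 3 comparisons, each from 2 arrays against 2, with genes whose effect differed between batches in red and the line of equal effect dashed. Ctsc stands at 0.90 and 2.19 for retinoic acid over IL-1α and at 0.29 and -0.61 for IL-1α over untreated, away from the line, while Ctsf lies below 0 in both batches for both comparisons with untreated.

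The promoter of Ctsc, the member with the largest rise, is shown from RefSeq (GRCm38.p6, chr7:88277835-88278134, plus strand, 250 bases before to 50 after the start of the transcript).
Ctsc: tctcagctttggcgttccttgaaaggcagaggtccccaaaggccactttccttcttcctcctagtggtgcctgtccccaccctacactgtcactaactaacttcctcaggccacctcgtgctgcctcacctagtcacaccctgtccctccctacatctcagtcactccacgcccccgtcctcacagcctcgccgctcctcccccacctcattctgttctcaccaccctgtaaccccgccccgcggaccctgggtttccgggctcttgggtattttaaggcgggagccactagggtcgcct
Each promoter was searched on both strands for the E-box CACGTG, the core of the site bound by the lysosomal regulators of the MiT/TFE family, and for AGGTCA, the half-site of retinoic acid receptors. Neither string is in this window, and the window says nothing of sites elsewhere.

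Ctsb (chr14:63122462-63145923) codes for cathepsin B, an endopeptidase that also trims dipeptides from the carboxyl end. The brighter probe (ILMN_2683316) read 10.66, 10.76, 12.45 and 12.35 on the untreated arrays, 10.46, 10.57, 12.31 and 12.24 with IL-1α and 11.09, 11.10, 12.87 and 12.61 with retinoic acid, in each case with both batch 1 arrays first. Within each batch, every retinoic acid array was above every array of the other treatments, while across batches all groups overlapped. Retinoic acid arrays exceeded IL-1α arrays by 0.52 (SE 0.11, adjusted p = 0.00212), with 0.58 in batch 1 and 0.46 in batch 2. Against untreated it rose by 0.36 (SE 0.11, adjusted p = 0.0176), with 0.38 in batch 1 and 0.34 in batch 2. The second probe (ILMN_2638941) gave 0.49 against IL-1α (adjusted p = 0.0135) and 0.51 against untreated (adjusted p = 0.00956), so both probes passed in both comparisons. IL-1α and untreated were neighbours in the order of Ctsb levels and did not differ beyond the spread (-0.16, 95% interval -0.39 to 0.07, adjusted p = 0.285). The rise against untreated did not pass without the retinoic acid array of replicate 1, whether of batch 1 (adjusted p = 0.0696) or of batch 2 (adjusted p = 0.0532).

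Ctsk (chr3:95499210-95509387) codes for cathepsin K, the collagen-cleaving enzyme of osteoclasts. Its probe (ILMN_2711163) read 10.72 and 11.01 untreated, 11.76 and 11.78 with IL-1α and 11.52 and 11.48 with retinoic acid in batch 1. In batch 2 it read 12.28 and 12.01 untreated, 12.37 and 12.32 with IL-1α and 12.52 and 12.81 with retinoic acid. Both treatments were above untreated in both batches, with IL-1α highest in batch 1 and retinoic acid highest in batch 2. Ctsk rose by 0.58 (SE 0.16, adjusted p = 0.0137) with retinoic acid and by 0.55 (SE 0.16, adjusted p = 0.0219) with IL-1α. The rise with IL-1α did not pass with median scaling. The treatments were neighbours in the order of levels and did not differ beyond the spread (0.03, 95% interval -0.32 to 0.38). The rise with retinoic acid was alike in the batches (0.63 and 0.52), whereas that with IL-1α was 0.90 in batch 1 and 0.19 in batch 2. That difference of -0.71 between batches did not pass in the model with treatment by batch (adjusted p = 0.0845).

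The Ctsk calls depended on single arrays. The rise with IL-1α did not pass without the untreated arrays of batch 1 (adjusted p = 0.0953 without replicate 1 and 0.0683 without replicate 2), the untreated replicate 2 of batch 2 (0.056) or the IL-1α arrays of batch 1 (0.0932 and 0.0893). Without any of these, except the first, the IL-1α count was 1 in place of 2. The rise with retinoic acid did not pass without the untreated replicate 1 of batch 1 (adjusted p = 0.0647) or the retinoic acid replicate 2 of batch 2 (0.066).

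Ctsf (chr19:4855165-4860918) codes for cathepsin F, a cysteine proteinase whose proregion holds a cystatin-like domain. Its probe (ILMN_2615879) read 10.84 and 10.98 untreated, 9.91 and 9.86 with IL-1α and 9.99 and 9.97 with retinoic acid in batch 1. In batch 2 it read 10.21 and 9.94 untreated, 9.32 and 9.39 with IL-1α and 8.88 and 9.03 with retinoic acid. Every untreated array was above every IL-1α array, and the untreated and retinoic acid groups overlapped only where batch 1 arrays with retinoic acid met an untreated array of batch 2. Ctsf fell by 1.02 (SE 0.13, adjusted p = 5.24e-05) with retinoic acid and fell by 0.87 (SE 0.13, adjusted p = 0.000349) with IL-1α. The fall was seen in each batch, at -0.93 and -1.12 with retinoic acid and -1.03 and -0.72 with IL-1α. The difference between the treatments was -0.15 (95% interval -0.44 to 0.14, adjusted p = 0.437). Both falls passed without each array in turn.

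**Figure D3:**
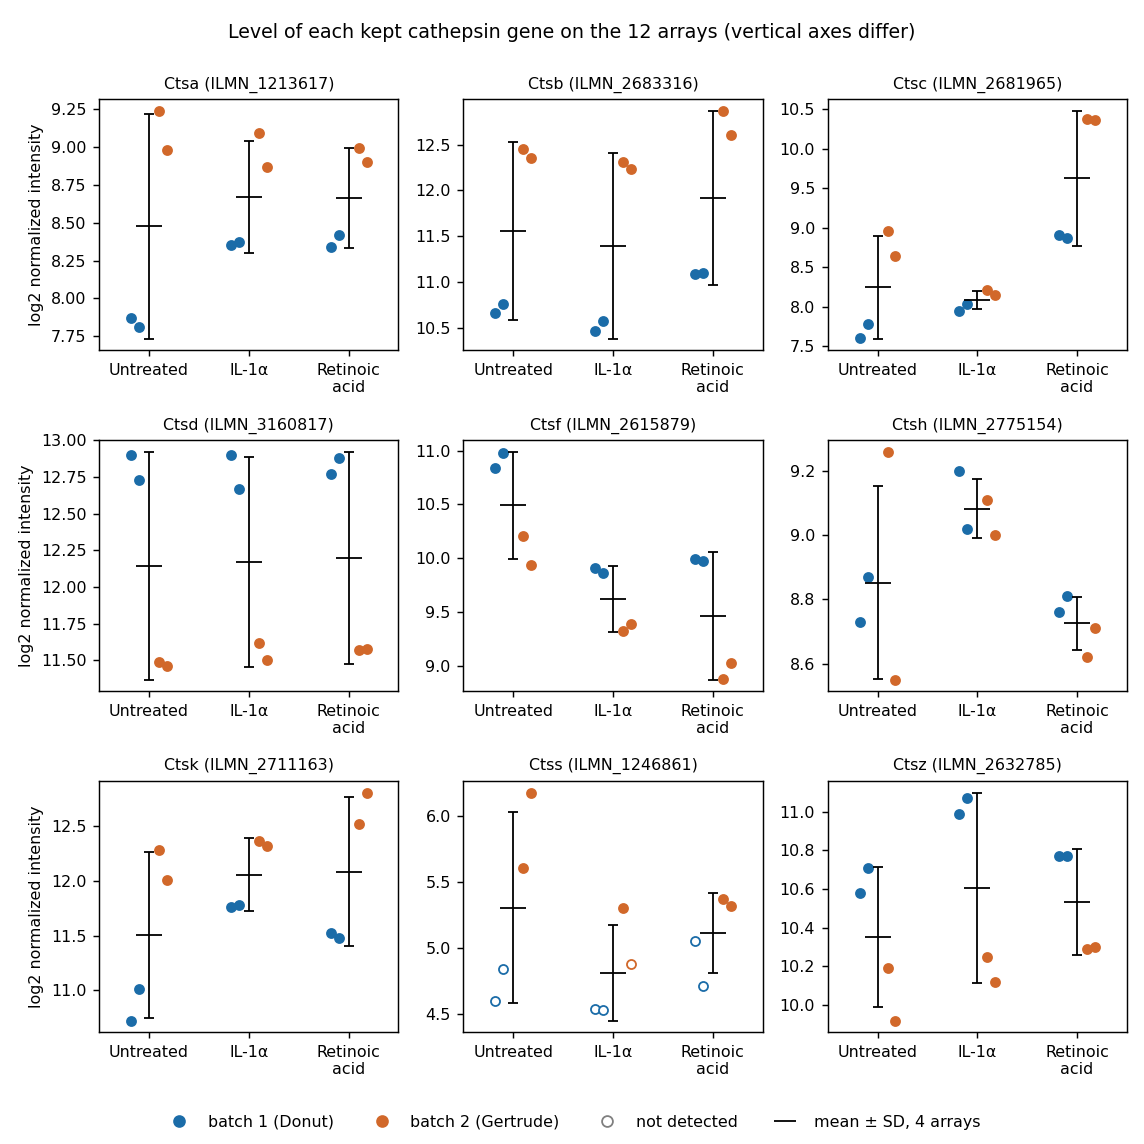
Log2 normalized intensity of the 9 kept cathepsin genes on each of the 12 arrays by treatment, with batch 1 in blue, batch 2 in orange, open circles for arrays where the probe was not detected and black bars for the mean and SD of 4 arrays. The retinoic acid points of Ctsc and Ctsb top their own batch, the untreated points of Ctsf do, and the batches of Ctsd and Ctsb lie furthest apart.

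The promoters of Ctsf and Ctsk are shown because they are the members that both treatments changed (RefSeq, GRCm38.p6, plus strand, chr19:4854915-4855214 and chr3:95498960-95499259). Capitals mark the E-box CACGTG and the retinoic acid receptor half-site AGGTCA, which reads TGACCT on the strand shown.
Ctsf: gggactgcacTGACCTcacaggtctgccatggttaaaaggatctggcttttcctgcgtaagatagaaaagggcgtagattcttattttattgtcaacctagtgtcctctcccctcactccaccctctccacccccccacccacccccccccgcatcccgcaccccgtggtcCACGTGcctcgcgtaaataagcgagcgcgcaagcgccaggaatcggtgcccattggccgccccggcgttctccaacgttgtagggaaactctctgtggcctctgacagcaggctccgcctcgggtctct
Ctsk: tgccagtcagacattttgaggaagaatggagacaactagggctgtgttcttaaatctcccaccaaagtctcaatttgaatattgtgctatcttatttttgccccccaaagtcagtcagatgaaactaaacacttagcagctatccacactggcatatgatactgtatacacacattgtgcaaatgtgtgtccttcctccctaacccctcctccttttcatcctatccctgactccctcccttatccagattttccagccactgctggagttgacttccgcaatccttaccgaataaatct
The Ctsf window holds an E-box 79 bases and a half-site 240 bases before the start, and the Ctsk window holds neither. The windows also differ in GC content, at 59.7% for Ctsf and 43.7% for Ctsk, with a median of 52.7% over all promoters. Over the 9 windows of the 8 members with an entry, an E-box was found in 4, of Ctsa, Ctsd, Ctsf and Ctsl, and by comparison in 7.15% of 32851 mouse promoters of the same length. The half-site was found in 4 windows, of Ctsa, Ctsd, Ctsf and Ctss, and in 16.3% of all promoters. In Ctsd an E-box 245 bases and a half-site 241 bases before the start overlap. A match is a string of letters, and no binding was measured here. Ctsb and Ctsh had no entry.

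Ctsh, Ctsz and Ctsa code for exopeptidases, cathepsin H for an aminopeptidase and cathepsins Z and A for carboxypeptidases. Ctsh (chr9:90054267-90076095, ILMN_2775154) read 9.20, 9.02, 9.11 and 9.0 with IL-1α and 8.76, 8.81, 8.62 and 8.71 with retinoic acid, batch 1 arrays first. Every retinoic acid array was thus below every IL-1α array. The difference of -0.36 (SE 0.14, 95% interval -0.66 to -0.06) did not pass over all probes (adjusted p = 0.0696). Without untreated replicate 1 of batch 2, which carried the highest Ctsh value at 9.26 against 8.55, 8.73 and 8.87 on the other untreated arrays, the adjusted p was 0.0279 and that of IL-1α against untreated 0.037. These were the lowest values when each array was left out in turn. The limma adjusted p then ran up to 0.256 between the treatments and up to 0.528 for IL-1α against untreated.

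The 2 kept probes of Ctsa (chr2:164832872-164841032), whose product also protects lysosomal galactosidase and sialidase, disagreed. The brighter one (ILMN_1213617) read 7.87, 7.81, 9.24 and 8.98 untreated, 8.35, 8.37, 9.09 and 8.87 with IL-1α and 8.34, 8.42, 8.99 and 8.90 with retinoic acid, batch 1 arrays first. Its groups overlapped, and the difference of IL-1α from untreated was 0.20 (95% interval -0.13 to 0.53, adjusted p = 0.356). The other probe (ILMN_2669714) read 8.88, 8.77, 7.89 and 8.18 untreated, 7.61, 7.39, 6.96 and 7.14 with IL-1α and 8.85, 8.89, 7.74 and 7.68 with retinoic acid. Here every IL-1α array was below every other array. This probe fell by 1.16 (SE 0.15, adjusted p = 9.99e-05) with IL-1α against untreated and was 1.01 above its IL-1α level with retinoic acid (adjusted p = 0.000162). The probes also differed in opposite directions between batches, at 0.82 and -0.80 for batch 2 minus batch 1. With the mean of both probes in place of the brighter one, the difference of retinoic acid from IL-1α for Ctsa was 0.5 (adjusted p = 0.00755). The deposited table gives no probe sequences, so which transcripts each probe reads was not tested.

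Ctsz (chr2:174427494-174439039) showed the same kind of disagreement at a smaller size. With IL-1α against untreated, its brighter probe (ILMN_2632785) was 0.26 higher (adjusted p = 0.119) and its other probe (ILMN_2666007) was at -0.34 (adjusted p = 0.0792), and neither passed. The IL-1α arrays of batch 1 gave the highest values of the brighter probe, 10.99 and 11.07, and the lowest of the other, 8.36 and 8.41. For Ctsb, both kept probes had the same sign in the comparisons that passed. The dimmer Ctsc probe was kept mainly through retinoic acid arrays, so its sign is not counted as agreement.

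**Figure D4:**
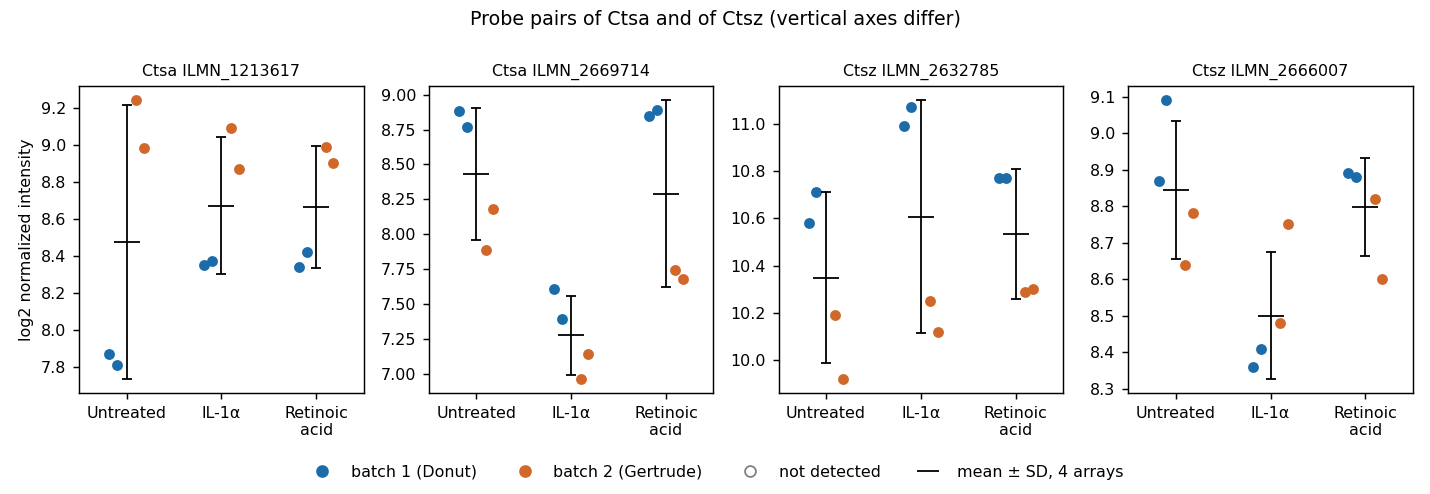
Log2 normalized intensity of the 2 kept probes of Ctsa and the 2 of Ctsz on the 12 arrays by treatment, with batch 1 in blue, batch 2 in orange and black bars for the mean and SD of 4 arrays. The second Ctsa probe is lowest on the 4 IL-1α arrays, between 6.96 and 7.61, while the first probe shows no such drop.

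Ctsd (chr7:142375910-142387827, ILMN_3160817), the gene of the aspartic proteinase cathepsin D, had the smallest range of group means of the 9 kept genes. It read 12.67 to 12.90 on the 6 arrays of batch 1 and 11.46 to 11.62 on the 6 of batch 2, whatever the treatment. The difference from untreated was 0.06 (95% interval -0.18 to 0.29) with retinoic acid and 0.03 (95% interval -0.21 to 0.26) with IL-1α. Ctss (chr3:95526786-95556405, ILMN_1246861), the gene of cathepsin S of antigen-presenting cells, was detected on 5 arrays, all of batch 2. The untreated arrays of batch 2 read 5.61 and 6.18, those with IL-1α 5.30 and 4.88 and those with retinoic acid 5.37 and 5.32. The difference of IL-1α from untreated over all arrays was -0.50 (SE 0.19, adjusted p = 0.0636), on a probe near background, and it passed with batch alone as covariate (adjusted p = 0.0388).

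The levels of most members also differed between batches. In the model of treatment and batch, 5 of 9 members were higher and 3 lower in batch 2, the Gertrude line, and Ctsh did not pass, where 29.7% of all genes were higher and 46.3% lower. Ctsb was higher by 1.70 (adjusted p = 8.02e-11), Ctsk by 1.01, Ctsc by 0.92, Ctsa by 0.82 and Ctss by 0.73 on the log2 scale. Ctss was detected on 5 arrays of batch 2 and 0 of batch 1. It was thus kept only through batch 2, and its place in the count is no evidence of a batch difference. Ctsd was lower, at -1.27 (adjusted p = 2.6e-09), as were Ctsf at -0.80 and Ctsz at -0.64. For Ctsa and Ctsz the direction rests on the brighter probe, since their other kept probes gave -0.80 and -0.07 (adjusted p = 0.55 for Ctsz). The other kept probes of Ctsb and Ctsc were higher in batch 2, by 0.80 and 0.81. These differences move with the scaling. When quantile normalization was replaced by scaling each array to a common median, the median over all kept probes went from -0.13 to 0.51, and 6 members were higher and 1, Ctsd at -0.76, lower. Ctsf at -0.13 and Ctsz at -0.06 then did not pass, and Ctsh was 0.78 higher (adjusted p = 0.000814). Ctsb at 2.21 remained furthest above the median and Ctsd furthest below it. The batches differ in line and in the number of detected probes, and these cannot be told apart.

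After the batch means were subtracted, the members fell into patterns that are given as a description over 12 arrays that share batches and treatments. Each gene was taken by its brightest kept probe. The highest correlation between members was 0.89, of Ctsk and Ctsz, followed by 0.84, of Ctsb and Ctsc. The value of 0.89 rests on the brighter Ctsz probe alone. With IL-1α against untreated the other Ctsz probe had the other sign (-0.34 against 0.26, neither passed). Ctsf ran against Ctsk at -0.83. Outside the cathepsins, the genes most like Ctsc, the member with the largest difference between retinoic acid and IL-1α, were 6720475J19Rik (Pearson correlation 0.986), Tagln2 (0.985) and Rftn1 (0.983). Those most like Ctsb, the member with the next largest difference, were P2ry1 (0.973), 1200009O22Rik (0.97) and Gpnmb (0.967), and Gpnmb codes for a glycoprotein of lysosome-related compartments.

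Among the inhibitors of the cysteine cathepsins, Stfa1 and Stfa2 rose with IL-1α and fell with retinoic acid. Of 14 inhibitor names, 10 were in the table and 6 kept. With IL-1α against untreated 4 rose and none fell, where 15.1% of all genes rose and 15% fell, and 5 were higher and 1, Cst3, lower at an unadjusted limma p under 0.05. With retinoic acid 1 rose and 2 fell, where 18.6% of all genes rose and 18.1% fell. Stfa1, a stefin A gene of myeloid cells, had a log2 intensity of 9.32 ± 0.25 untreated, 11.36 ± 0.19 under IL-1α and 7.98 ± 0.68 under retinoic acid (mean and SD of 4 arrays each), and no group overlapped another. It rose by 2.05 with IL-1α (limma adjusted p = 9.92e-05) and fell by 1.34 with retinoic acid (adjusted p = 0.00145). Stfa2 rose by 1.77 and fell by 1.18 in the same comparisons, and Stfa2l1 rose by 1.44 with IL-1α. The stefin A genes are close copies of each other, so a probe of one may read another. Cstb, the gene of the widely expressed stefin B, rose by 0.43 with IL-1α (adjusted p = 0.0296, not passed with median scaling) and by 0.42 with retinoic acid (adjusted p = 0.027). Cst3, the gene of the secreted cystatin C, read 13.11 with IL-1α and 13.18 with retinoic acid against 13.50 untreated, and neither difference passed.

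Of the 10 genes that process or deliver cathepsins, all were kept. Against untreated, 1 rose and 3 fell with IL-1α (15.1% and 15% of all genes), and 1 rose and 3 fell with retinoic acid (18.6% and 18.1% of all genes). Lgmn, the gene of legumain, which cleaves procathepsins, fell by 0.69 with IL-1α (SE 0.11, adjusted p = 0.00043) and was 0.10 above untreated with retinoic acid, which did not pass. Gnptg, a subunit of the enzyme that makes the mannose 6-phosphate tag, fell by 0.89 with IL-1α (adjusted p = 0.000331). Igf2r, the gene of the large mannose 6-phosphate receptor, rose by 0.53 with IL-1α and fell by 0.68 with retinoic acid, and neither passed with median scaling. Sort1, the gene of the sorting receptor sortilin, fell by 0.88 with IL-1α and by 1.25 with retinoic acid. Scarb2 fell by 0.50, which did not pass with median scaling, and Psap rose by 0.58 with retinoic acid. M6pr, Gnptab, Nagpa and Grn did not pass in any comparison of treatments.

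**Figure D5:**
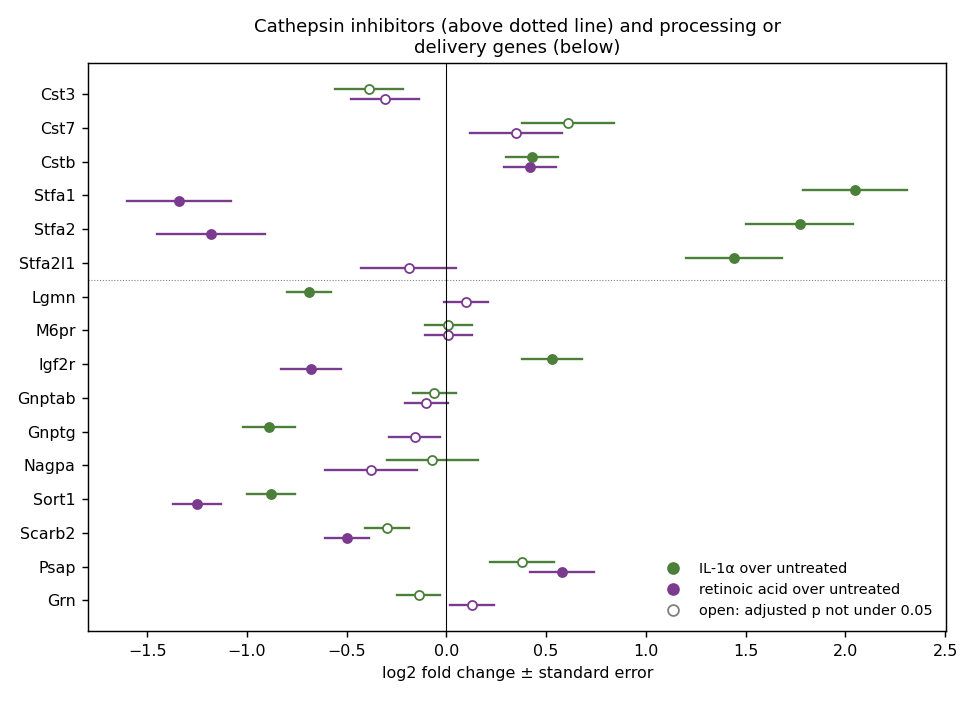
Log2 fold change against untreated (horizontal axis) with its standard error for the 6 kept cathepsin inhibitors and the 10 processing or delivery genes, for IL-1α in green and retinoic acid in purple, over 4 arrays per treatment, with open circles where the adjusted p was not under 0.05. Stfa1 and Stfa2 lie on opposite sides of 0 for the 2 treatments, as does Igf2r, and Sort1 lies below 0 for both.

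Of 18 genes of the lysosomal membrane and its acidification, 17 were kept. With retinoic acid 7 rose and none fell (9 and 0 at an unadjusted limma p under 0.05), and with IL-1α 7 rose and 1 fell, with the same counts under median scaling. Over all genes, 18.6% rose and 18.1% fell with retinoic acid and 15.1% rose and 15% fell with IL-1α. Tcirg1, a subunit of the proton pump, rose by 1.36 with retinoic acid and by 0.65 with IL-1α, and Clcn7, the chloride and proton exchanger of lysosomes, rose by 0.67 and 0.74. Lamp2 fell by 0.66 with IL-1α. Of the 25 kept genes of other lysosomal hydrolases, 2 rose and 6 fell with retinoic acid, while 3 rose and 2 fell with IL-1α, to be read against the same shares of all genes. Under median scaling these counts were 3 and 2 with retinoic acid and 1 and 1 with IL-1α. Mitf, the only one of 4 lysosomal regulators in the table, read 9.71 untreated, 9.54 with IL-1α and 9.64 with retinoic acid and did not pass. Of the granule proteinases that cathepsin C activates, 3 were kept, and Ctsg (-2.46) and Ela2 (-1.45) fell with retinoic acid against untreated, where Ctsc rose. The third, Prtn3, differed by 0.36 and did not pass (adjusted p = 0.488).

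Other cells of the explant also express cathepsins, and in RNA from whole tissue fewer cells of a type and less RNA per cell cannot be told apart. The summed normalized intensity of the 8 kept chondrocyte markers was 62552 to 73264 untreated, 35341 to 46751 with IL-1α and 10183 to 15387 with retinoic acid. All 8 fell with retinoic acid against untreated, where 18.1% of all genes fell. The 7 kept of 10 macrophage markers summed to 1116 to 1632 untreated, 1950 to 2486 with IL-1α and 2734 to 3269 with retinoic acid, and Itgam and Cd163 were detected on no array. Against untreated, 5 of the 7 rose with retinoic acid (18.6% of all genes), while 1 (Cd14) rose and 5 fell with IL-1α (15.1% and 15%). The part of these cells in the rises of Ctsc and Ctsb was not tested. The 4 kept of 6 osteoclast markers summed to 208 to 230 untreated, 279 to 291 with IL-1α and 264 to 327 with retinoic acid. Calcr and Atp6v0d2 were detected on no array. Of the 4, 1 rose and 0 fell with retinoic acid, where 18.6% of all genes rose. With IL-1α 1 rose and 0 fell, where 15.1% of all genes rose, and the 1 that rose, Oscar, did not pass with median scaling. The part of osteoclasts in the rises of Ctsk was not tested. The 8 neutrophil markers summed to 9882 to 17027 untreated, 17218 to 18189 with IL-1α and 6036 to 15272 with retinoic acid, and all 8 were kept. With retinoic acid against untreated 5 of the 8 fell, including Mpo (-2.10) and Ela2, and none rose, where 18.1% of all genes fell. With median scaling 3 of the 8 fell, and Camp and Ltf did not pass. The median log2 difference of the 8 was -0.78 in the main model. The sums differed between batches. In batch 1 the retinoic acid sums (6036 and 6093) were below the untreated sums, and in batch 2 (14376 and 15272) above them. The part of these cells in the values of Ctsg, Ela2 and the stefin A genes was not tested. All 3 mast cell markers were detected on no array.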

How the data were processed

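Total RNA of 12 explant samples was hybridised to Illumina bead arrays. The authors deposited 1 table of probe intensities on a linear scale, without normalization, and, per the file headers, a detection p-value for each probe and array. These deposited detection values rise with intensity, so they were treated as a score, and the detection p was taken as its difference from 1. The bead summary software is not given in the sources used here. All 24 value columns belonged to a sample.

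Background correction, quantile normalization, an offset of 16 and log2 were applied with neqc of limma 3.58.1 in R 4.3.3, as in the methods. Of 46632 probes, the 18200 detected (p under 0.05) on 4 or more arrays were kept. Figures were drawn with matplotlib 3.10.9. The methods name a factor for batch and replicates in the linear model, which was read here as a 4-level factor that joins both, beside treatment. Replicates of the same number deviated together only in part (correlations of -0.11 to 0.39), so whether the number pairs arrays is not known. The factor still treats arrays of the same number and batch as a set, and it is in the model only because the methods name it. Whether effects differed was tested by a model of treatment by batch, and batches were compared with treatment as a covariate. Adjusted p-values are Benjamini-Hochberg over all kept probes, called under 0.05. Members, gene lists and tests were chosen with earlier results of these data known. Every member probe is named, each gene by its brightest kept probe, with any kept inhibitor or delivery gene and the called genes of other lists. For the 2 members with the largest difference between retinoic acid and IL-1α, the 3 genes most like each are named, by Pearson correlation over 12 arrays after subtraction of batch means. Loci and promoters are from RefSeq (GRCm38.p6), matched by symbol: all 10 members had a locus and 8 a promoter. The alternatives were no background correction, median scaling, normalization within batches, an offset of 50, other filters, other covariates, a fold limit, leaving out each array, mean of probes and each batch alone. Where an array was left out of the model of treatment by batch, the remaining array of that group was assumed to vary like the other groups.

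On simulated arrays with 200 changed probes, the comparison of retinoic acid with IL-1α recovered 77% of changes of size 1 and 93% of size 2 (log2) among 17995 probes. The treatment by batch term recovered 2% and 59% among 17922 probes, so it misses most differences of size 1. The number of arrays limits the precision.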

Additional observations from a re-analysis of the deposited data

Results flagged for a closer look

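Ctsc stood out because its response to treatment differed between the 2 batches, which are also the 2 mouse lines. The difference of retinoic acid from IL-1α was 1.29 larger on the log2 scale in batch 2 (adjusted p = 0.00157, limma treatment by batch term), with 0.90 in batch 1 and 2.19 in batch 2. The difference of IL-1α from untreated was 0.29 in batch 1 and -0.61 in batch 2, a difference of -0.91 (adjusted p = 0.0234). Line and batch cannot be told apart.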

How the results depend on the processing

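Of 642 values of single members under the alternatives, 606 kept their side of the threshold, 22 no longer passed, 12 passed newly and 2 turned and passed. Values that passed in neither setting were counted among the 606 even where their sign changed. For Ctsc with IL-1α against untreated, for example, leaving out each array gave -0.35 to 0.04. The turned values were of Ctsa with the mean of its probes, at 0.5 for retinoic acid against IL-1α and -0.48 (adjusted p = 0.0119) for IL-1α against untreated. For IL-1α against untreated, where 2 members passed, 1 passed with median scaling, 1 with no filter, 1 with a fold change over 1.5 and 0 with neither batch nor replicate in the limma model (1 at an unadjusted p under 0.05). Without batch and replicate 1 member passed for each other comparison, Ctsc, and with the fold limit 1 passed for retinoic acid against IL-1α and 2 against untreated. Leaving out each array gave counts of 1 to 3 for IL-1α against untreated, 2 to 3 for retinoic acid against IL-1α, 3 to 4 for retinoic acid against untreated and 8 to 8 between batches. The counts of effects that differed between batches were then 0 to 3 for IL-1α against untreated, 1 to 1 for retinoic acid against IL-1α and 0 to 1 for retinoic acid against untreated. For IL-1α against untreated this count, 1 in the model reported, was 2 with no background correction and 3 with median scaling or an offset of 50, as Ctsk and Ctsa joined Ctsc, and for retinoic acid against untreated it was 1, Ctsa, with an offset of 50. The causes were not tested.

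With no replicate block and batch alone, the model called 2 members between the treatments, 4 for retinoic acid and 3 for IL-1α, where Ctss passed (adjusted p = 0.0388). Median scaling moved the median of all probes for retinoic acid against untreated from 0.02 to 0.14, and the share of called probes that were higher from 51.6% to 65.6%. For retinoic acid against IL-1α that share moved from 49% to 65.6%, and the number of called probes from 5656 to 4096. For IL-1α against untreated that number moved from 5334 to 3104. In a choice made after the data were seen, the mean of kept probes gave counts of 3 between the treatments, 4 for retinoic acid and 3 for IL-1α, and a replicate block in the treatment by batch model gave 1, 0 and 1 in that order. The values of Ctss, the second Ctsc probe and Stfa2l1 lie near background.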
